A study of Homo sapiens with 12 samples.

Results

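miR-424 and miR-542 are members of a miRNA cluster on the long arm of the X chromosome, which also holds the genes of miR-503 and miR-450. All rows of the Ct table named for miR-424, miR-450a, miR-450b, miR-503 or miR-542 were taken. They were 4 of the 372 miRNA assays, namely both arms of the miR-424 hairpin (miR-424-5p and miR-424-3p) and both arms of the miR-542 hairpin (miR-542-3p and miR-542-5p). miR-503-5p and the miR-450 arms were not analysed here. All 4 assays had a Ct under 35 on each of the 12 arrays, so no filter on low values removed a member. Each Ct is the amplification cycle in which a well crossed the threshold, so that a higher Ct stands for less miRNA.

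The arrays were made from OCI-My5 cells, an established human multiple myeloma cell line. My5.LV cells are OCI-My5 cells carrying the lentiviral vector, with a low level of CRBN (cereblon, the protein that lenalidomide binds), and My5.CRBN cells carry CRBN cDNA and have a high level of CRBN. Each cell line gave 6 arrays. These were un-treated cells, cells with AGO2-sh72 (a lentiviral shRNA against AGO2, which the labels name EIF2C2), cells with AGO2 cDNA from a lentivirus, cells with 10 µM lenalidomide for 72 hours (3 days) or 120 hours (5 days), and cells with AGO2 cDNA and 72 hours of lenalidomide. There was 1 array per condition. Un-treated cells were the control of every treatment within a cell line, and no array of cells with an empty shRNA or cDNA vector was used here, so the shRNA or cDNA cannot be told apart from the infection and selection that came with it. No array was labelled as cells with DMSO, the control of lenalidomide in the paper's other assays. Lenalidomide therefore cannot be told apart from its solvent or from the time in culture. AGO2 and CRBN themselves were not measured by these arrays. The RNA came from whole cultures, so fewer cells with a miRNA and less of it per cell cannot be told apart.

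A miRNA hairpin is cut by Drosha and Dicer into a duplex, of which usually one arm, the guide, is kept by an Argonaute protein such as AGO2 while the other arm is degraded. Hairpins of a cluster can be cut from a shared primary transcript, but the mature arms can still differ in how they are loaded and how long they last. miR-424-5p is known for the seed of the miR-15/16 family. miR-424 and miR-503 are known for the repression of cyclins and other cell cycle genes, and the cluster rises during monocyte differentiation. In the GRCh38.p14 annotation of RefSeq the hairpins lie within 6.53 kilobases of the minus strand, in the order MIR424 (chrX:134546614-134546711), MIR503 (chrX:134546328-134546398), MIR542 (chrX:134541341-134541437), MIR450A2 (chrX:134540508-134540607), MIR450A1 (chrX:134540341-134540431) and MIR450B (chrX:134540185-134540262). The span of the long non-coding RNA gene MIR503HG (chrX:134543377-134546630) covers MIR503 and reaches into MIR424, whereas MIR542 lies outside it. MIR542 and MIR424 are 5.18 kilobases apart.

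RefSeq gave mature sequences for 3 of the 4 members. They are shown because the seed (bases 2 to 8, in capitals) sets which targets an arm can pair with, and the arms of a hairpin have different seeds.
miR-424-5p: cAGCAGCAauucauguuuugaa
miR-424-3p: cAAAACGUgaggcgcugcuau
miR-542-5p: uCGGGGAUcaucaugucacgaga
miR-424-5p lies at chrX:134546680-134546701, miR-424-3p at chrX:134546644-134546664 and miR-542-5p at chrX:134541400-134541422, all on the minus strand. The seed of miR-424-5p is shared by 5 miRNAs of other chromosomes that have assays on the array, and these are shown because they were followed beside it.
miR-15a-5p: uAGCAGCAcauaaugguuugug
miR-15b-5p: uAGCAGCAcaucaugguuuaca
miR-16-5p: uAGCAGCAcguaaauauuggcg
miR-195-5p: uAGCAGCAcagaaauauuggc
miR-497-5p: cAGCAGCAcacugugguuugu
The arms of miR-424 lie on either side of its hairpin, shown here with both arms in capitals, as their levels are compared with each other.
MIR424 hairpin: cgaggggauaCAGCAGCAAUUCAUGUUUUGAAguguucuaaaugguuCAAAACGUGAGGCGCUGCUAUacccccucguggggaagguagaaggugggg
The 5p arm of miR-542 is in capitals in its hairpin.
MIR542 hairpin: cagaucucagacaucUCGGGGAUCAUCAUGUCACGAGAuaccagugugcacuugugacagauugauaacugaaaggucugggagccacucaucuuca

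Levels are given on the log2 scale as the mean Ct of 6 small-RNA control wells (SNORD61, SNORD68, SNORD72, SNORD95, SNORD96A and RNU6-2) minus the Ct of the miRNA, so that 1 unit is 2 fold, and they are compared only between arrays for a given assay. The mean Ct of the control wells ranged from 18.7 to 21.9, and 324 to 367 assays on an array gave a Ct under 35. An assay present in a pair of wells, the positive PCR control, differed between its wells by 0.383 cycles (root mean square over 12 arrays), which was taken as the spread between wells. The reverse transcription control, the other assay in a pair of wells, differed by 0.187 cycles. With 1 array per condition, the spread of a comparison was taken as the SD among the 6 control wells' own log2 fold changes. The control wells were read at earlier cycles than miR-424-3p and miR-542-5p (Ct 26.6 to 31.96). Whether their SD covers the spread of such later assays was not tested. The labelled cell type was checked against miRNAs that mark blood cells. Assays for miR-142-3p, miR-142-5p and miR-150-5p had Ct values from 12.4 to 23.4, and the liver marker miR-122-5p from 30.7 to the cap of 35. Markers of muscle (18.7 to 32.9), neurons (22.0 to 31.6), epithelium (23.5 to 32.7) and mesenchyme (23.3 to 31.7) were detected as well, and their part in the results was not tested.

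hsa-miR-424-5p, the arm with the miR-15/16 seed, gave Ct values from 18.7 to 23.6. In My5.LV cells its level was -1.32 without treatment, -1.53 with AGO2 cDNA, -2.67 with AGO2-sh72, -1.62 with 3 days of lenalidomide, -1.46 with AGO2 cDNA and lenalidomide, and -0.65 with 5 days of lenalidomide. In My5.CRBN cells it was -1.12, -0.77, -1.80, -0.53, -0.44 and 0.00 in the same order. The AGO2-sh72 array was the lowest and the array with 5 days of lenalidomide the highest in each cell line. Of the 11 steps between neighbours in the order of the 12 levels, 2 were wider than the spread between wells (4 by the smaller spread of the reverse transcription control).

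miR-424-3p, the opposite arm, was detected later, with Ct values from 26.6 to 29.5. Its level in My5.LV cells was -8.87 without treatment, -7.28 with AGO2 cDNA, -8.25 with AGO2-sh72, -8.79 with 3 days of lenalidomide, -8.32 with AGO2 cDNA and lenalidomide, and -9.16 with 5 days of lenalidomide. In My5.CRBN cells the levels were -8.42, -7.65, -7.58, -8.05, -7.75 and -7.90. Un-treated cells had the lowest level in My5.CRBN cells and the second lowest in My5.LV cells. Its range of 1.88 over the 12 arrays was below the median range of 2.43 among 314 miRNAs that were always under Ct 35, and 0 of its 11 steps were wider than the spread between wells (4 by the smaller spread).

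hsa-miR-542-3p had Ct values from 23.8 to 28.7. In My5.LV cells its level was -4.56 without treatment, -5.66 with AGO2 cDNA, -7.68 with AGO2-sh72, -5.80 with 3 days of lenalidomide, -5.05 with AGO2 cDNA and lenalidomide, and -5.07 with 5 days of lenalidomide. In My5.CRBN cells it was -5.68, -5.68, -6.80, -5.50, -5.01 and -5.46. The AGO2-sh72 arrays were the lowest of all 12, and un-treated My5.LV cells had the highest level of all 12, which enters each My5.LV comparison below as the control. Between the AGO2-sh72 array of My5.CRBN cells and the next array above it lay the widest step, 0.99.

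hsa-miR-542-5p, the opposite arm, had Ct values from 26.6 to 31.96. In My5.LV cells its level was -9.69 without treatment, -8.43 with AGO2 cDNA, -10.52 with AGO2-sh72, -8.24 with 3 days of lenalidomide, -9.22 with AGO2 cDNA and lenalidomide, and -7.00 with 5 days of lenalidomide. In My5.CRBN cells it was -9.10, -10.10, -9.23, -7.65, -9.61 and -8.56. The 4 arrays with lenalidomide alone held 4 of the 5 highest levels, the other being My5.LV cells with AGO2 cDNA. This arm had the widest range of the 4 members, 3.53, which was the 48th widest among the 314 miRNAs, and 5 of its 11 steps were wider than the spread between wells (6 by the smaller spread).

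**Figure D1:**
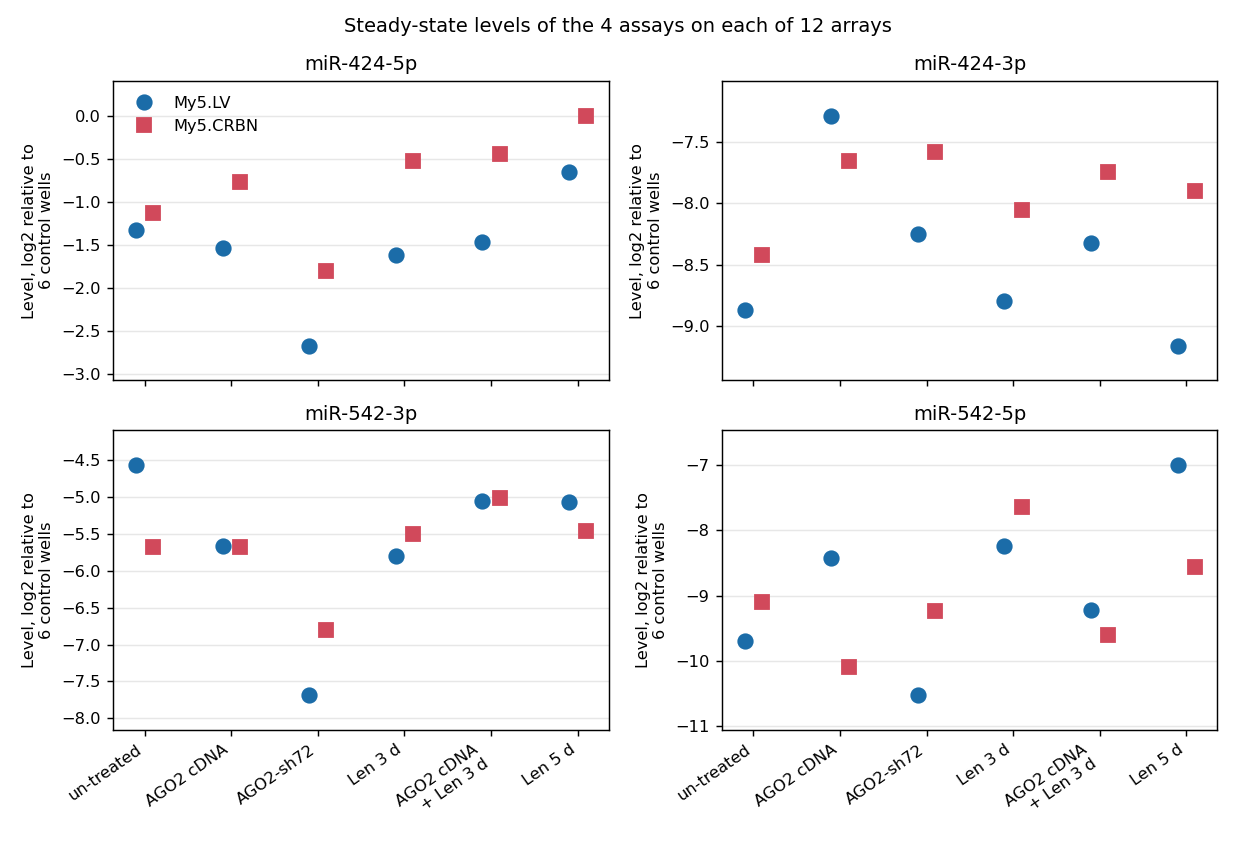
Level of each member (log2, relative to the 6 small-RNA control wells) on each array, with My5.LV as circles and My5.CRBN as squares, 1 array per point and a separate axis range per panel. The AGO2-sh72 arrays were lowest for miR-424-5p and miR-542-3p, and 5 days of lenalidomide gave the highest miR-424-5p in both cell lines.

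Of the 40 values of 4 members in 10 comparisons with un-treated cells of the same cell line, 3 were past 3 fold, against 11.7% of the values of all miRNAs in these comparisons, so the members were not above that background. The comparisons of a cell line share its un-treated array. The first was miR-542-3p in My5.LV cells with AGO2-sh72, which was 8.71 fold lower (log2 fold change -3.12, control well SD 0.51). It was the third lowest of 340 miRNAs under Ct 35 on both arrays. The second was miR-424-3p in My5.LV cells with AGO2 cDNA, which was 3.00 fold higher (1.59, control well SD 0.41) and so lay at the threshold. The third was miR-542-5p in My5.LV cells with 5 days of lenalidomide, which was 6.49 fold higher (2.70, control well SD 0.41), the highest of 346 miRNAs. In these comparisons with un-treated cells, no value in My5.CRBN cells was past 3 fold. Differences between treatments and between cell lines are given further below.

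With AGO2-sh72 the levels of miR-424-5p and miR-542-3p, the arms with the lower Ct of each hairpin, were below those of un-treated cells in both cell lines, and that of miR-424-3p was above. In My5.LV cells, where the share of miRNAs past 3 fold was 23.7% lower and 1.88% higher, 1 of the 4 members was at least 3 fold lower (miR-542-3p) and 0 were higher. Next to it, miR-424-5p had a log2 fold change of -1.34 and miR-542-5p of -0.83, whereas miR-424-3p was at 0.62. The median of all miRNAs in this comparison was -0.79. In My5.CRBN cells the values were -0.67 for miR-424-5p, 0.84 for miR-424-3p, -1.12 for miR-542-3p and -0.14 for miR-542-5p, with a control well SD of 0.30 and a median of all miRNAs of -0.52. There 12.9% of miRNAs were lower by 3 fold or more and 1.61% higher, and 0 of the 4 members.

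Both cell lines were then fitted together, with terms for cell line and treatment over all miRNAs (limma, two-sided, Benjamini-Hochberg over 372 miRNAs, 5 residual degrees of freedom). The p-value of such a fit measures whether the 2 cell lines moved alike, not the spread of repeat cultures. With AGO2-sh72, 28.5% of the miRNAs passed an adjusted p of 0.05 as lower and 0.806% as higher. Of the 4 members 1 passed: miR-542-3p fell by 2.12 ± 0.47 on the log2 scale (SE, adjusted p = 0.017), the 29th smallest p. miR-424-5p was at -1.01 ± 0.36 (adjusted p = 0.0638), miR-424-3p at 0.73 ± 0.42 (adjusted p = 0.236) and miR-542-5p at -0.48 ± 0.71 (adjusted p = 0.725). The median of all miRNAs was -0.59. miR-424-5p passed with RNU6-2 alone (-1.72, adjusted p = 0.00782), with the reverse transcription control wells (-1.24, adjusted p = 0.0198) and without SNORD72 as normalizer (-1.03, adjusted p = 0.0445), and, at an unmoved value, among only the miRNAs always under Ct 35 (adjusted p = 0.0439) and without moderation of the variance (adjusted p = 0.0368). With the global mean it was at -0.30 (adjusted p = 0.534). The call of miR-542-3p rested on single arrays and on the normalizer. It was at -1.48 (adjusted p = 0.144) without the un-treated My5.LV array, -2.76 (adjusted p = 0.0759) without the un-treated My5.CRBN array and -1.56 (adjusted p = 0.177) without the AGO2-sh72 array of My5.LV cells. Normalized to the global mean of miRNAs, which moved the median of all miRNAs from -0.59 to 0.11 and the share of lower miRNAs among those that passed from 97.2% to 9.09%, it was at -1.42 ± 0.43 (adjusted p = 0.0831). With that normalizer miR-542-5p turned to 0.22 and miR-424-3p was at 1.43 (adjusted p = 0.0633).

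The 5 miRNAs with the seed of miR-424-5p were all lower with AGO2-sh72 in each cell line. Over both cell lines 4 of the 5 passed the test as lower, beside 28.5% of all miRNAs: miR-15a-5p fell by 1.97 ± 0.34 (adjusted p = 0.0127), miR-15b-5p fell by 1.76 ± 0.38 (adjusted p = 0.017), miR-195-5p fell by 1.22 ± 0.37 (adjusted p = 0.0361) and miR-16-5p fell by 1.08 ± 0.36 (adjusted p = 0.0492). miR-497-5p was at -0.86 ± 0.36 (adjusted p = 0.103). The median of the family was -1.22, against -0.59 for all miRNAs and -1.01 for miR-424-5p. Normalized to the global mean, the family's median was -0.52 and 0 of the 5 passed. The count was also 0 without either un-treated array or the AGO2-sh72 array of My5.LV cells, and 2 without RNU6-2 in the normalizer or without any one array of 3 days of lenalidomide, with or without AGO2 cDNA. With 5 days of lenalidomide the 5 assays had positive values over both cell lines (median 0.37, against -0.05 for all miRNAs), and 0 of them passed.

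The nearest other miRNA cluster on the X chromosome runs from MIR363 (chrX:134169378-134169452) to MIR106A (chrX:134170198-134170278), 369.9 kilobases from MIR450B. Of its 10 listed arms 9 had assays, of which miR-19b-3p and miR-92a-3p also come from hairpins elsewhere. With AGO2-sh72, 2 of the 9 passed the test over both cell lines (limma), both lower, beside 28.5% of all miRNAs. In this fit the share of the list was thus not above that of all miRNAs. Those that passed were miR-19b-3p, which fell by 1.66 ± 0.33 (adjusted p = 0.0132), and miR-20b-5p, which fell by 1.44 ± 0.42 (adjusted p = 0.0326). The other 7 had values from -1.05 to 0.68. The count was 0 without either un-treated array or the AGO2-sh72 array of My5.LV cells, and 1 without the AGO2-sh72 array of My5.CRBN cells, without either array of AGO2 cDNA and lenalidomide, or without RNU6-2 in the normalizer. The median of the list was -0.01, against -0.59 for all miRNAs, and with the global mean as normalizer it was 0.70 and 0 of the 9 passed. With RNU6-2 alone, the reverse transcription control wells, a normalizer without SNORD61 or SNORD72, or no moderation of the variance, 3 of the 9 passed as lower. Among only miRNAs always under Ct 35, 3 of 6 did. In these settings the share of the list was not set against that of all miRNAs.

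With AGO2 cDNA, of the 4 members only miR-424-3p had a higher level than without treatment in both cell lines, whereas miR-424-5p and miR-542-5p had opposite signs in them and miR-542-3p was lower in My5.LV cells with almost no difference in My5.CRBN cells. In My5.LV cells, where 5.91% of miRNAs were higher by 3 fold or more and 0.806% lower, 1 of the 4 members was at least 3 fold higher (miR-424-3p, above). The log2 fold changes of the others were -0.21 for miR-424-5p, -1.09 for miR-542-3p and 1.27 for miR-542-5p. In My5.CRBN cells, where 2.15% were higher by that much and 6.18% lower, 0 of the 4 members were past 3 fold. miR-424-3p was at 0.77, miR-424-5p at 0.36, miR-542-3p at 0.00 and miR-542-5p at -1.00, with a control well SD of 0.56. In the fit over both cell lines 0.0% of miRNAs passed (0 of 372 by limma at an adjusted p of 0.05, 35 at an unadjusted p of 0.05), and 0 of the 4 members did. miR-424-3p was at 1.18 ± 0.42 (adjusted p = 0.396, and 0.62 to 1.73 when 1 array was left out). Set against AGO2-sh72 cells, My5.LV cells with AGO2 cDNA had higher levels of the 4 members, from 0.97 for miR-424-3p to 2.10 for miR-542-5p, beside a median of 0.86 for all miRNAs. In My5.CRBN cells that difference was 1.03 for miR-424-5p and 1.12 for miR-542-3p, but -0.07 for miR-424-3p and -0.87 for miR-542-5p, beside a median of 0.41. Past 3 fold among these were miR-542-3p (4.08 fold higher) and miR-542-5p (4.28 fold higher) in My5.LV cells, the 34th and 29th highest of 344 miRNAs. The share of all miRNAs past 3 fold was not computed against AGO2-sh72 cells, so neither is read as a result about the members.

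With lenalidomide alone, miR-542-5p was above its un-treated level on all 4 arrays. After 3 days its log2 fold change was 1.45 in My5.LV cells, the third highest of 347 miRNAs, and also 1.45 in My5.CRBN cells, the 36th highest of 348, with control well SDs of 0.18 and 0.22 and medians of all miRNAs of -0.12 and 0.30. These are 2.74 and 2.73 fold and so under the 3 fold threshold, which 0.538% (My5.LV) and 9.95% (My5.CRBN) of miRNAs passed as higher and 0.538% and 1.61% as lower. After 5 days it was 2.70 in My5.LV cells, where 4.3% of miRNAs were higher by 3 fold or more and 14.2% lower. The value in My5.CRBN cells was 0.53, the 69th highest of 345, where 5.11% were higher and 13.4% lower. In the fit over both cell lines miR-542-5p was at 1.45 ± 0.71 after 3 days (adjusted p = 0.935, with 0.0% of miRNAs past the threshold by limma and 18 of 372 at an unadjusted p of 0.05) and at 1.62 ± 0.71 after 5 days (adjusted p = 0.216, with 0.806% of miRNAs called higher and 6.99% lower, 7.8% in all). It was positive in 4 of 4 arrays and passed the test at neither time. When 1 array was left out, the fitted value ranged from 0.98 (without un-treated My5.LV) to 1.92 (without un-treated My5.CRBN) after 3 days, and from 0.79 (without the 5-day My5.LV array) to 2.44 (without the 5-day My5.CRBN array) after 5 days.

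In My5.CRBN cells after 5 days miR-424-5p was farther from un-treated cells than miR-542-5p (1.13 against 0.53). It was at -0.30 and 0.60 after 3 days in My5.LV and My5.CRBN cells and at 0.67 and 1.13 after 5 days, which gave 0.90 ± 0.36 over both cell lines after 5 days (adjusted p = 0.171, and 0.56 to 1.24 when 1 array was left out). miR-542-3p was at -1.24 and 0.18 after 3 days and at -0.50 and 0.22 after 5 days. miR-424-3p lay between -0.29 and 0.52 in these 4 comparisons. With AGO2 cDNA and 3 days of lenalidomide together, My5.LV cells had -0.14 for miR-424-5p, 0.54 for miR-424-3p, -0.49 for miR-542-3p and 0.47 for miR-542-5p (control well SD 0.67). My5.CRBN cells had 0.68, 0.67, 0.66 and -0.51 in the same order (control well SD 0.37). As the SDs differ, values within the first and beyond the second are not read as a difference between the cell lines. None of the 4 was past 3 fold in either cell line. There 2.42% (My5.LV) and 4.3% (My5.CRBN) of miRNAs were higher by that much and 5.11% and 0.806% lower. miR-542-5p, higher with lenalidomide alone, was at 0.47 (My5.LV) and -0.51 (My5.CRBN) under this combination. Directly against 3 days of lenalidomide alone, the combination gave -0.98 and -1.96 for miR-542-5p and 0.75 and 0.49 for miR-542-3p in My5.LV and My5.CRBN cells, beside medians of -0.13 and -0.31 for all miRNAs. The -1.96 in My5.CRBN cells was 3.89 fold lower, past 3 fold, and the 7th lowest of 357 miRNAs. The share of all miRNAs past 3 fold was not computed there, so it is not read as a result about the members. This last comparison has no test of its own.

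**Figure D2:**
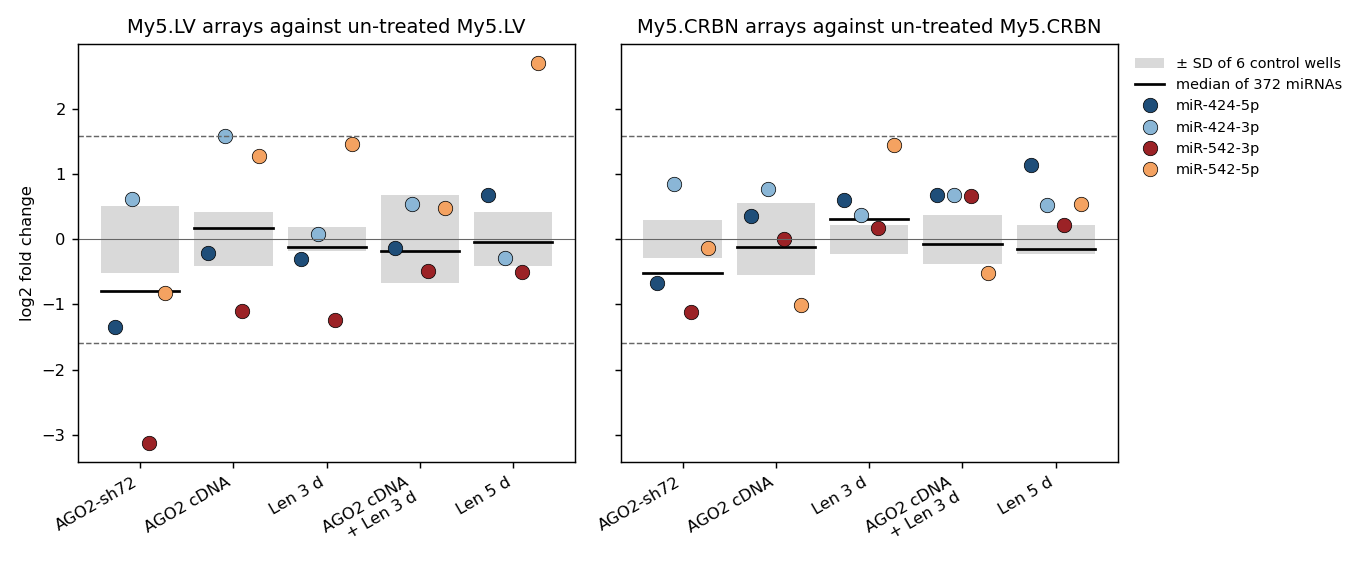
Log2 fold change of the 4 members against un-treated cells of the same cell line, for My5.LV (left) and My5.CRBN (right), with the SD of the 6 control wells (grey band), the median of all 372 miRNAs (black line) and 3 fold (dashed lines). miR-542-3p with AGO2-sh72 (-3.12) and miR-542-5p with 5 days of lenalidomide (2.70) in My5.LV cells lie farthest out, and the My5.CRBN values stay within 3 fold.

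My5.CRBN and My5.LV cells were compared in 6 matched conditions. miR-424-5p was higher in My5.CRBN cells in 6 of 6 pairs, by 0.20 in un-treated cells, 0.87 with AGO2-sh72, 0.76 with AGO2 cDNA, 1.09 with 3 days of lenalidomide, 1.02 with AGO2 cDNA and lenalidomide, and 0.65 with 5 days of lenalidomide. The difference was beyond the control well SD in each pair except the un-treated one (SD 0.22). Over the pairs it was 0.77 ± 0.21 (SE, limma, adjusted p = 0.0831), in a fit where 0.538% of the 372 miRNAs passed as higher and 0.538% as lower. miR-424-3p, from the opposite arm, was higher in 5 of 6 pairs, with a range of -0.37 to 1.26 and a fitted value of 0.56 ± 0.24 (adjusted p = 0.345). Neither arm of miR-542 had a common direction. miR-542-3p was higher in My5.CRBN cells in 3 of 6 pairs (-0.05 ± 0.27, adjusted p = 0.997) and miR-542-5p in 3 of 6 (-0.19 ± 0.41, adjusted p = 0.963).

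Of the 24 values of the 4 members in the 6 pairs, 1 was past 3 fold, against 8.42% of the values of all miRNAs. This was miR-542-5p in cells with AGO2 cDNA, which was 3.18 fold lower in My5.CRBN cells (-1.67, control well SD 0.52), in a comparison where 9.14% of miRNAs were lower by 3 fold or more and 1.61% higher. With 5 days of lenalidomide it was 2.96 fold lower in My5.CRBN cells (-1.57, control well SD 0.43), where 6.45% of miRNAs were past 3 fold in each direction. Without treatment the share of miRNAs past 3 fold was 2.15% higher and 1.88% lower in My5.CRBN cells, and the farthest member was miR-542-3p at -1.12. The un-treated pair and the AGO2-sh72 pair had opposite signs for this arm, as My5.CRBN cells with AGO2-sh72 were at 0.89 against My5.LV cells with AGO2-sh72. In the latter pair all 4 members were higher in My5.CRBN cells, from 0.67 to 1.29, where 3.23% of the miRNAs were past 3 fold as higher and 0.806% as lower and the median of all miRNAs was 0.19. With 3 days of lenalidomide (9.41% of miRNAs higher by 3 fold or more, 0.538% lower) and with AGO2 cDNA and lenalidomide (6.99% and 1.88%), 0 of the 4 members were past 3 fold between the cell lines.

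**Figure D3:**
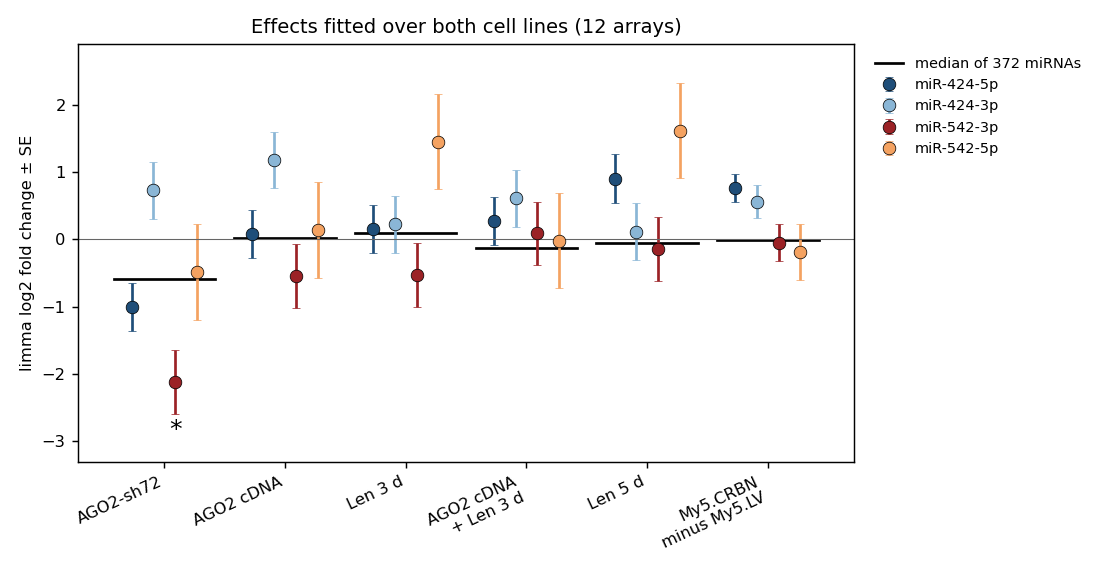
Effects fitted over both cell lines on the 12 arrays (limma log2 fold change, error bars are SE), for the 5 treatments against un-treated cells and for My5.CRBN minus My5.LV, with the median of all 372 miRNAs as a black line. The asterisk marks an adjusted p under 0.05, which 1 of the 24 values reached, miR-542-3p with AGO2-sh72.

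The arms of each hairpin were then compared within an array, which needs no normalizer. The gap is the Ct of one arm's assay minus that of the other. Since assays differ in efficiency, the gap itself is not a ratio of molecules, and only its change between arrays is read. The miR-542-5p assay was later than the miR-542-3p assay on 12 of 12 arrays. In My5.LV cells it was 5.13 cycles later without treatment, 2.77 with AGO2 cDNA, 2.84 with AGO2-sh72, 2.44 with 3 days of lenalidomide, 4.17 with AGO2 cDNA and lenalidomide, and 1.93 with 5 days of lenalidomide. In My5.CRBN cells the gap was 3.42, 4.42, 2.43, 2.15, 4.60 and 3.10 cycles. The un-treated My5.LV array had the widest gap of all 12. The gap was narrower than without treatment in both cell lines with AGO2-sh72 and with lenalidomide alone for 3 or 5 days, whereas with AGO2 cDNA, alone or with lenalidomide, it was narrower in My5.LV and wider in My5.CRBN cells.

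The miR-424-3p assay was later than the miR-424-5p assay on 12 of 12 arrays. Its gap in My5.LV cells was 7.55 cycles without treatment, 5.75 with AGO2 cDNA, 5.59 with AGO2-sh72, 7.17 with 3 days of lenalidomide, 6.86 with AGO2 cDNA and lenalidomide, and 8.51 with 5 days of lenalidomide. In My5.CRBN cells it was 7.29, 6.89, 5.78, 7.53, 7.30 and 7.90 cycles. AGO2-sh72 thus went with the narrowest gap of miR-424 in each cell line and 5 days of lenalidomide with the widest.

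**Figure D4:**
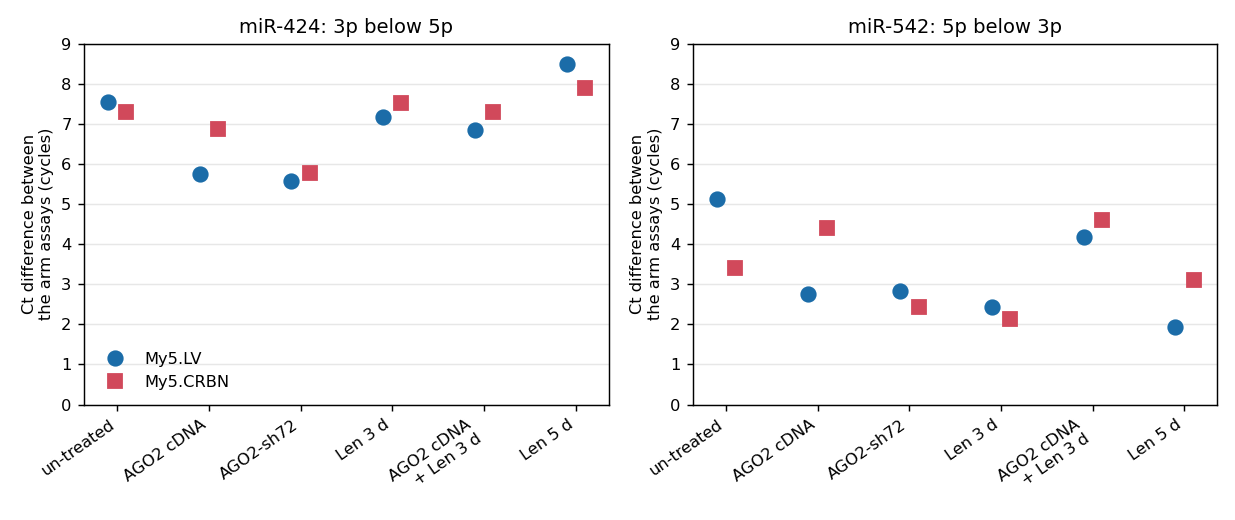
Ct difference between the assays of the arms of miR-424 (left, 3p minus 5p) and miR-542 (right, 5p minus 3p) on each array in cycles, with My5.LV as circles and My5.CRBN as squares, 1 array per point. For miR-424 the AGO2-sh72 arrays (5.59 and 5.78) lie below un-treated cells (7.55 and 7.29), and for miR-542 the un-treated My5.LV array (5.13) is the highest point.

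The gaps of all 86 hairpins with an assay for each arm were fitted over both cell lines. With AGO2-sh72 the gap of miR-424 narrowed by 1.74 ± 0.47 cycles (SE, limma, adjusted p = 0.044 over 86 hairpins), with the 3p arm raised against the 5p arm. In that fit 11.6% of hairpins passed with the 3p arm raised and 4.65% with it lowered, so 1 of the 2 hairpins of the cluster stood against 16.3% of all. The call was lost with a Ct cap of 40 (adjusted p = 0.0502) and in 8 of 12 fits that left out 1 array (1.46 to 2.01 cycles). Those included the fits without an un-treated or an AGO2-sh72 array, with adjusted p-values of 0.229 without My5.LV, 0.151 without My5.CRBN, 0.238 without My5.LV with AGO2-sh72 and 0.176 without My5.CRBN with AGO2-sh72. For miR-542 the level of 3p minus 5p, positive on all arrays, moved by -1.64 ± 0.75 (adjusted p = 0.197). With lenalidomide alone it moved by -1.98 ± 0.75 after 3 days, the second smallest p of 86 (adjusted p = 0.666, 0.0% of hairpins called by limma, 3 at an unadjusted p of 0.05), and by -1.76 ± 0.75 after 5 days (adjusted p = 0.22, 4.65% of hairpins called). For miR-424 the level of 3p minus 5p, negative on all arrays, moved by 0.07 ± 0.47 after 3 days of lenalidomide (adjusted p = 0.934). After 5 days it moved by -0.79 ± 0.47 (adjusted p = 0.344), which is a wider gap. With AGO2 cDNA 3.49% of hairpins were called. There the level of 3p minus 5p moved by 1.10 ± 0.47 for miR-424 (adjusted p = 0.255) and by -0.68 ± 0.75 for miR-542 (adjusted p = 0.688). Both fitted values stand for a narrower gap. These values rested on single arrays. Without the un-treated My5.LV array the value of miR-542 was -0.53 with AGO2-sh72, -0.87 after 3 days of lenalidomide and -0.65 after 5 days, and without the un-treated My5.CRBN array it was -2.75, -3.10 and -2.87. For 3p minus 5p of miR-424 the fits that left out 1 array gave 0.55 to 1.65 with AGO2 cDNA and -1.28 to -0.30 after 5 days of lenalidomide.

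The hairpins were also read by which arm had the lower Ct, taken for each cell line from the un-treated array of the other, and limited to the 63 hairpins with both arms under Ct 35 on all arrays. With AGO2-sh72 this arm was lowered against its partner in 48 of the 63 hairpins (76.2%) in My5.LV cells, with a median of -0.83, and in 52 of 63 (82.5%) in My5.CRBN cells, with a median of -0.52. miR-424 was at -1.96 and -1.51 and miR-542 at -2.29 and -0.98 in My5.LV and My5.CRBN cells, so both hairpins lay on the side of most hairpins in each line. This direction was not particular to AGO2-sh72. In My5.LV cells with AGO2 cDNA the share was 82.5%, with a median of -0.58, miR-424 at -1.79 and miR-542 at -2.36. In My5.CRBN cells with AGO2 cDNA it was 74.6%, with a median of -0.38, miR-424 at -0.41 and miR-542 at 1.00. With AGO2 cDNA and lenalidomide the shares were 65.1% (My5.LV) and 73.0% (My5.CRBN). With 3 days of lenalidomide the share was 54.0% in My5.LV cells, with a median of -0.05. miR-542 was at -2.69 there, the lowest of the 63, with the un-treated My5.LV array, which had the widest gap of miR-542, as the control. In My5.CRBN cells the share was 65.1%, with a median of -0.46, and miR-542 at -1.27 was the tenth lowest. After 5 days the share was 30.2% in My5.LV cells, with a median of 0.60, and miR-542 at -3.20 was the second lowest, whereas miR-424 was at 0.96. In My5.CRBN cells after 5 days the share was 36.5%, with miR-542 at -0.32 and miR-424 at 0.61.

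Over the 12 arrays the gap of miR-542 had a range of 3.20 cycles and that of miR-424 of 2.92, against a median of 2.45 for the 63 hairpins. A total of 17 hairpins had a wider range than miR-542, led by miR-191 (8.46), miR-205 (7.74) and miR-143 (6.89) and followed by miR-181c, miR-186, miR-10a, miR-33a, miR-200c, miR-425, miR-195, miR-23b, miR-139, miR-25, miR-93, miR-302a, miR-125a and miR-200a.

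The levels of the 4 members were not all correlated with each other. The following correlations over 12 arrays are a description with no test, as the arrays share the normalizer and the cell lines. The arms of miR-542 had a Pearson r of 0.37 (Spearman rho 0.14), near the median of 0.33 over the arms of the 63 hairpins and above the median of 0.18 over all pairs of the 314 miRNAs. The arms of miR-424 had an r of 0.05 (rho -0.02). Between the hairpins, the arms with the lower Ct, miR-424-5p and miR-542-3p, had the highest r of the 6 pairs, 0.68 (rho 0.62), and the arms with the higher Ct, miR-424-3p and miR-542-5p, were at -0.31 (rho -0.24). Without the 2 AGO2-sh72 arrays the r of miR-424-5p and miR-542-3p was 0.06 and that of the miR-542 arms -0.18, so both rested on those arrays. With the global mean as normalizer they were 0.50 and 0.09, and the medians over hairpins and over all pairs were 0.14 and 0.00.

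The miRNAs most like miR-542-3p over the 12 arrays were let-7d-5p (r = 0.90), miR-374a-5p (0.90) and miR-454-3p (0.89), all with a median Ct between 20.7 and 22.2. Those most like miR-542-5p were miR-200a-3p (0.90), miR-10a-5p (0.78) and miR-30e-3p (0.78). None of the 6 is a member of the cluster, and the other arm of miR-542 was in neither list. With the global mean as normalizer these values were between 0.69 and 0.83.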

How the data were processed

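The members and lists were chosen with earlier results of these data known. Per the labels, total RNA was isolated with the miRNeasy Mini kit, turned into cDNA (miScript II RT kit) and measured on miScript miRNA PCR Arrays. The deposited table holds Ct values of 372 miRNA assays and 12 control wells on 12 arrays, which is another kind of unit than counts and was not normalized by the authors. The fold changes deposited by the authors, ratios to un-treated My5.LV cells, were not used. Ct values above 35 and 33 undetermined wells were set to 35, and levels were computed as given in the results. miRNAs at least 3 fold apart were called, as in the paper, with no test, as there was 1 array per condition. The fit over both cell lines used limma 3.58.1 in R 4.3.3 with terms for cell line and treatment. It was tested on simulated data of 372 miRNAs, in which 19 of 20 miRNAs with a log2 fold change of -3, 13 of 20 with -2, 17 of 20 with 3 and 2 of 312 unchanged miRNAs were called with AGO2-sh72. The simulated noise was drawn separately for each miRNA and array. It held no shift shared by a whole array, so it does not cover errors of the normalizer or of a single array. Named were all members, the list miRNAs that passed, the 3 miRNAs most correlated with each miR-542 arm, and the hairpins with a wider gap range than miR-542. Alternatives were other normalizers (the global mean, RNU6-2, the reverse transcription control, 5 of the 6 control wells), Ct caps of 32 and 40, a 2 fold threshold, a filter at Ct 35, an unmoderated fit and leaving out each array. Arrays have no sequencing depth, and their number limits the precision. Sequences and positions are from RefSeq (GRCh38.p14), which gave 8 of the 9 mature sequences looked up. Other steps ran in Python 3.11.15 with pandas 2.3.3, NumPy 2.4.6, Matplotlib 3.10.9 and SciPy 1.17.1.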

Additional observations from a re-analysis of the deposited data

Results flagged for a closer look

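For miR-542-5p with AGO2 cDNA, the cell lines moved in opposite directions beyond their control well SDs. Its log2 fold change against un-treated cells was 1.27 in My5.LV cells (control well SD 0.41) against -1.00 in My5.CRBN cells (0.56). On these arrays its Ct was from 29.6 to 31.96, later than the control wells behind these SDs. For miR-424-5p with 3 days of lenalidomide the values were -0.30 in My5.LV cells (0.18) against 0.60 in My5.CRBN cells (0.22). The medians of all miRNAs, -0.12 and 0.30, had the same signs. Minus these medians miR-424-5p was at -0.17, within the SD of 0.18, and at 0.30. Its -0.30 in My5.LV cells was also smaller than the 0.383 cycles taken as the spread between wells. With 1 array per condition neither difference between the cell lines was tested.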

How the results depend on the processing

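No pairing of repeat cultures was possible because each condition has 1 array and the labels carry no replicate numbers. The arrays were matched by cell line and treatment, and the cell line served as the block in the fits. With the global mean as normalizer miR-542-3p with AGO2-sh72 was at -1.42 and no longer passed, miR-542-5p with AGO2-sh72 turned to 0.22, and the correlations of miR-424-5p with miR-542-3p and of the miR-542 arms were 0.50 and 0.091. Without the 2 AGO2-sh72 arrays they were 0.0588 and -0.18. miR-424-5p with AGO2-sh72 passed at -1.72 with RNU6-2 alone, at -1.24 with the reverse transcription control wells, at -1.03 without SNORD72, and at -1.01 both with only miRNAs always under Ct 35 and without moderation. With RNU6-2 alone miR-542-3p turned to 0.0085 between the cell lines, and 6 member values in place of 3 were past 3 fold. That normalizer also moved the median of all miRNAs with AGO2-sh72 from -0.59 to -1.31. At 2 fold, with the 6 control wells, 12 member values were past the threshold. The share of all miRNAs was not computed for either count, so neither is read as a result about the members. With a Ct cap of 40 the narrowing of the miR-424 gap with AGO2-sh72, still 1.74, no longer passed. The number of miRNAs that passed moved by over 1.5 times in several settings. For AGO2-sh72 it was 109 as reported, 11 under the global mean, 180 under RNU6-2, 0 without either un-treated array or the AGO2-sh72 array of My5.LV cells, 60 without that of My5.CRBN cells and 69 without either array of AGO2 cDNA and lenalidomide. For 5 days of lenalidomide it was 29, but 45 with the reverse transcription control wells, 13 without moderation and 7 to 17 without an un-treated or a 5-day array. For the cell lines it was 4, but 7 to 10 under the global mean, RNU6-2, the reverse transcription control wells, the normalizer without SNORD95 or SNORD96A, and miRNAs always under Ct 35. For AGO2 cDNA it was 0, and 1 in 5 settings. For AGO2 cDNA and lenalidomide it was 0, but 17 under RNU6-2 and 1 under the global mean or without its My5.CRBN array. The 14 hairpins whose gap passed with AGO2-sh72 became 3 with a Ct cap of 40, 0 or 1 without an un-treated or an AGO2-sh72 array and 6 without either 3-day lenalidomide array. The 4 with 5 days of lenalidomide became 0 or 1 without an un-treated array or the 5-day array of My5.LV cells, the 3 with AGO2 cDNA 0 or 1 in 11 settings, and the 1 between the cell lines 2 without either AGO2-sh72 array. When each array was left out in turn, AGO2-sh72 gave -2.76 to -1.48 for miR-542-3p, -1.37 to 0.41 for miR-542-5p and 1.46 to 2.01 for the narrowing of the gap of miR-424. Between the cell lines miR-542-3p ranged from -0.24 to 0.16 and miR-542-5p from -0.49 to 0.11. Taken as 3p minus 5p, the change for miR-542 with AGO2 cDNA ranged from -1.79 to 0.43. That for miR-424 with 3 days of lenalidomide ranged from -0.21 to 0.35. The cause of these shifts was not tested. Of 968 log2 fold changes recomputed with other normalizers and caps, 84 moved by more than the control well SD and 0 of those past 3 fold changed sign. In a fit without 1 array of a condition, the lone array left is assumed to vary like the others. Each value rests on single wells.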

Other observations

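By the same measure of likeness, applied to the miR-424 arms after their values were seen, the miRNAs most like miR-424-5p over the 12 arrays were miR-223-3p (r = 0.95), miR-9-5p (0.93) and miR-1 (0.92), and they were at 0.90, 0.87 and 0.87 with the global mean as normalizer. miR-223-3p is known from myeloid cells, and miR-9-5p and miR-1 are among the neuron and muscle markers whose Ct ranges are given in the report. Those most like miR-424-3p were miR-222-3p (0.75), miR-21-3p (0.66) and miR-99b-5p (0.66). These are descriptions over arrays that share a normalizer, taken as the highest values among 314 miRNAs, and no test was made.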
